A study of Mus musculus with 53 samples.

Results

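Homeobox genes and other transcription factors that lay out the regions of the hypothalamus were followed through RNA-seq libraries of 2 laser-captured nuclei, the paraventricular nucleus (PVN) and the arcuate nucleus (ARC). The list holds 42 of the 53379 genes in the count tables. It was drawn up by name from known homeobox and regional factors, and the engrailed gene En2 was added because of its values in the female PVN. The mice were C57BL/6. Nnat+/-p animals inherited a whole-body null allele of the imprinted gene Nnat, marked by a lacZ cassette, from heterozygous fathers crossed to wild-type mothers. Nnat+/+ animals were wild type. Animals were adults, with 13 to 14 weeks given as the age at collection, and they ate chow or a diet with 45% fat (HFD). Chow-fed Nnat+/-p animals were split by body weight into non-obese and obese.

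The female PVN, all on chow, held 4 libraries of Nnat+/+ mice and 3 each of the non-obese and obese subgroups. The male PVN held 3, 3 and 4 libraries of the same groups on chow, with 6 Nnat+/+ and 3 Nnat+/-p libraries on HFD. The male ARC held 2, 4 and 4 libraries on chow, with 6 Nnat+/+ and 4 Nnat+/-p libraries on HFD. Labelled body weights were 24.1 to 24.6 g in Nnat+/+ females, 20.4 to 23.9 g in non-obese and 31.5 to 33.35 g in obese Nnat+/-p females. In the chow-fed males they were 31.4 to 33.5 g, 27.4 to 34.3 g and 38.8 to 46.5 g, in the same order. Nothing in the labels ties libraries to litters, so p-values measure only the spread between these libraries. Replicates 1 and 2, both female Nnat+/+, carry the same labelled weight (24.1 g). Whether they come from 1 mouse is not known, and they count as separate libraries throughout.

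Homeobox genes encode transcription factors that bind DNA through a homeodomain. In the embryo their nested expression divides the forebrain into territories, and many stay on in the adult neurons that arise there, where they keep up neuropeptide and transmitter programmes. The bHLH-PAS factor SIM1 with its partner ARNT2, the homeodomain factor OTP and the POU factor POU3F2 (BRN2) are required for the neuroendocrine neurons of the PVN. NKX2-1 patterns the ventral, tuberal hypothalamus that gives rise to the ARC, and ISL1 is needed in its melanocortin neurons.

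The upstream sequence of 6 members is shown, 3 higher in the PVN and 3 higher in the ARC, whose calls between the nuclei were made in every alternative fit. The stretches lie outside annotated exons, before a RefSeq transcription start on GRCm38.p6 and are written 5′ to 3′ on the gene's strand. They come from chr10:50895401-50895472 (+) for Sim1, ending 178 bases before the start site, chr13:94875386-94875601 (+) for Otp, ending 34 bases before it, and chr4:22488367-22488616 (-) for Pou3f2. Those of genes higher in the ARC come from chr13:116309690-116309938 (-) for Isl1, chr12:56536909-56537158 (-) for Nkx2-1 and chr12:72939632-72939709 (+) for Six6, the last ending 172 bases before its start site. The Sim1 stretch lies inside the annotated gene, whose longest extent begins upstream of this start site. Capitals mark a match to TACGTG, the core element of SIM-ARNT dimers, on either strand.
Sim1: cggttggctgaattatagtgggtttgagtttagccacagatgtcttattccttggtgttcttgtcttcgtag
Otp: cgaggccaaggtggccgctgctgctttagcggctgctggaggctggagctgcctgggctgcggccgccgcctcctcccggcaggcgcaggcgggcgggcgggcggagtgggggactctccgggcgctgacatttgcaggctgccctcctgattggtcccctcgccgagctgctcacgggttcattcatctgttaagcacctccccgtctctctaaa
Pou3f2: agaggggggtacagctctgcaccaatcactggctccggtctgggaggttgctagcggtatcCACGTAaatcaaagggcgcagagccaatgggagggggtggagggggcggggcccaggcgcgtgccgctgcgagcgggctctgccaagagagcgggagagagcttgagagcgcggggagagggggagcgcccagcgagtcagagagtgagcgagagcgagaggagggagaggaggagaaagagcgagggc
Isl1: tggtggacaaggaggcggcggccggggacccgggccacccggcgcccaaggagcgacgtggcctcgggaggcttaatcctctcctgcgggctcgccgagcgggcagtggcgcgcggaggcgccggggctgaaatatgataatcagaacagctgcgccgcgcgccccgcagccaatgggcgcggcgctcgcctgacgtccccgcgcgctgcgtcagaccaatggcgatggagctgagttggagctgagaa
Nkx2-1: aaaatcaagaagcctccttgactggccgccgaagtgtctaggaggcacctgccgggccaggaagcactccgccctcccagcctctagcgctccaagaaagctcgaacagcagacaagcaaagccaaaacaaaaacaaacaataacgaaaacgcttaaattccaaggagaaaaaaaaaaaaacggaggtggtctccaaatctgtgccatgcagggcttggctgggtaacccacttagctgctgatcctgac
Six6: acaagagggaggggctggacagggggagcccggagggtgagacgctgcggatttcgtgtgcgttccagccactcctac

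RefSeq windows matched 30 members, in 39 windows. TACGTG stood in the Pou3f2 window and in 2.72% of all 32851 windows. Of the other motifs searched on both strands, TAATTA, the homeodomain core, was found for Otx2 (4.84% of all windows), TCAAGTG for Nkx2-2 (2.68%), TGACAG for Lhx1, Lhx9, Six3 and Six6 (15.9%), and ATGCAAAT for no member (1.6%). The search covered the whole 250 bases before each start site, and the Six6 match lies between the printed stretch and the start site. A match describes the letters only. En2, Lhx5, Dlx5, Dlx6, Pou3f1, Pbx3, Onecut2, Onecut3, Otx1, Irx5, Sim2 and Foxb1 were not matched.

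Library totals ran from 6219365 to 30228973 counts in the female PVN, 2268021 to 8560199 in the male PVN and 1479953 to 18058097 in the male ARC. Nnat itself stood at 224 to 584 CPM (counts per 1000000 counts of the library) in the 21 Nnat+/+ libraries and at 0.268 to 13.7 CPM in the 28 Nnat+/-p libraries, so no library went against its genotype label. The summed CPM of 8 PVN neuron markers, Sim1 and Otp among them, was 1613 to 5142 in females and 50.3 to 147 in the male ARC. Replicate 15 (male PVN, Nnat+/+, chow) and replicate 24 (male PVN, Nnat+/+, HFD) stood apart, at 64.8 and 209, against their group medians of 1485 and 1539. In replicate 15 Avp was 0.163 and Oxt 0.489 CPM, in replicate 24 they were 0.896 and 1.25 CPM, and in the other 17 male PVN libraries they were 66.1 to 507 and 194 to 1360 CPM. The labelled nucleus of these libraries thus goes against its defining hormones, and the male PVN values below that rest on them are also given without them.

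Among the members, the homeodomain factor Otp, the bHLH-PAS factors Arnt2 and Sim1 and the POU factor Pou3f2 had high levels in the PVN. Per kilobase of exon, mean levels in the female PVN were 86.8 CPM for Otp, 47.8 for Arnt2, 33.9 for Pou3f2 and 21.0 for Sim1, and in the male PVN 55.9, 30.5, 26.0 and 14.2 in the same order (61.7, 32.2, 28.8 and 15.8 without replicates 15 and 24). In the male ARC they were 9.44, 12.1, 2.11 and 0.244 CPM per kilobase. There the leading members after Arnt2 and Otp were Nkx2-1 at 6.50, Nkx2-4 at 6.31 and Isl1 at 5.36 CPM per kilobase. A median of 50 CPM or more was reached by 5 of 42 members in the female PVN, 5 in the male PVN and 2 in the male ARC, while 18, 5 and 8 members had a median under 1 CPM.

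Female and male PVN differed in the low members. Nkx2-1 had a median of 0 CPM (0 to 0.286) in the 10 female libraries and 1.35 CPM (0 to 29.9) in the 19 male libraries, or 1.18 CPM (0 to 10.9) without replicates 15 and 24. Hmx3 and Irx5, a homeobox gene of the tuberal hypothalamus and an Iroquois factor, were at 0 in 9 and 8 of the 10 female libraries, with highest values of 0.238 and 0.293 CPM. In the male PVN they reached 11.0 and 19.4 CPM, with medians of 1.35 and 1.96 CPM. Genes with any count numbered 12898 to 19707 in the female libraries and 16719 to 24566 in the male PVN libraries, though female totals reached higher. The part of this in the zeros was not tested. Counts of females and males were deposited in separate tables, so sex and any batch between tables cannot be told apart and no test was made.

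**Figure D1:**
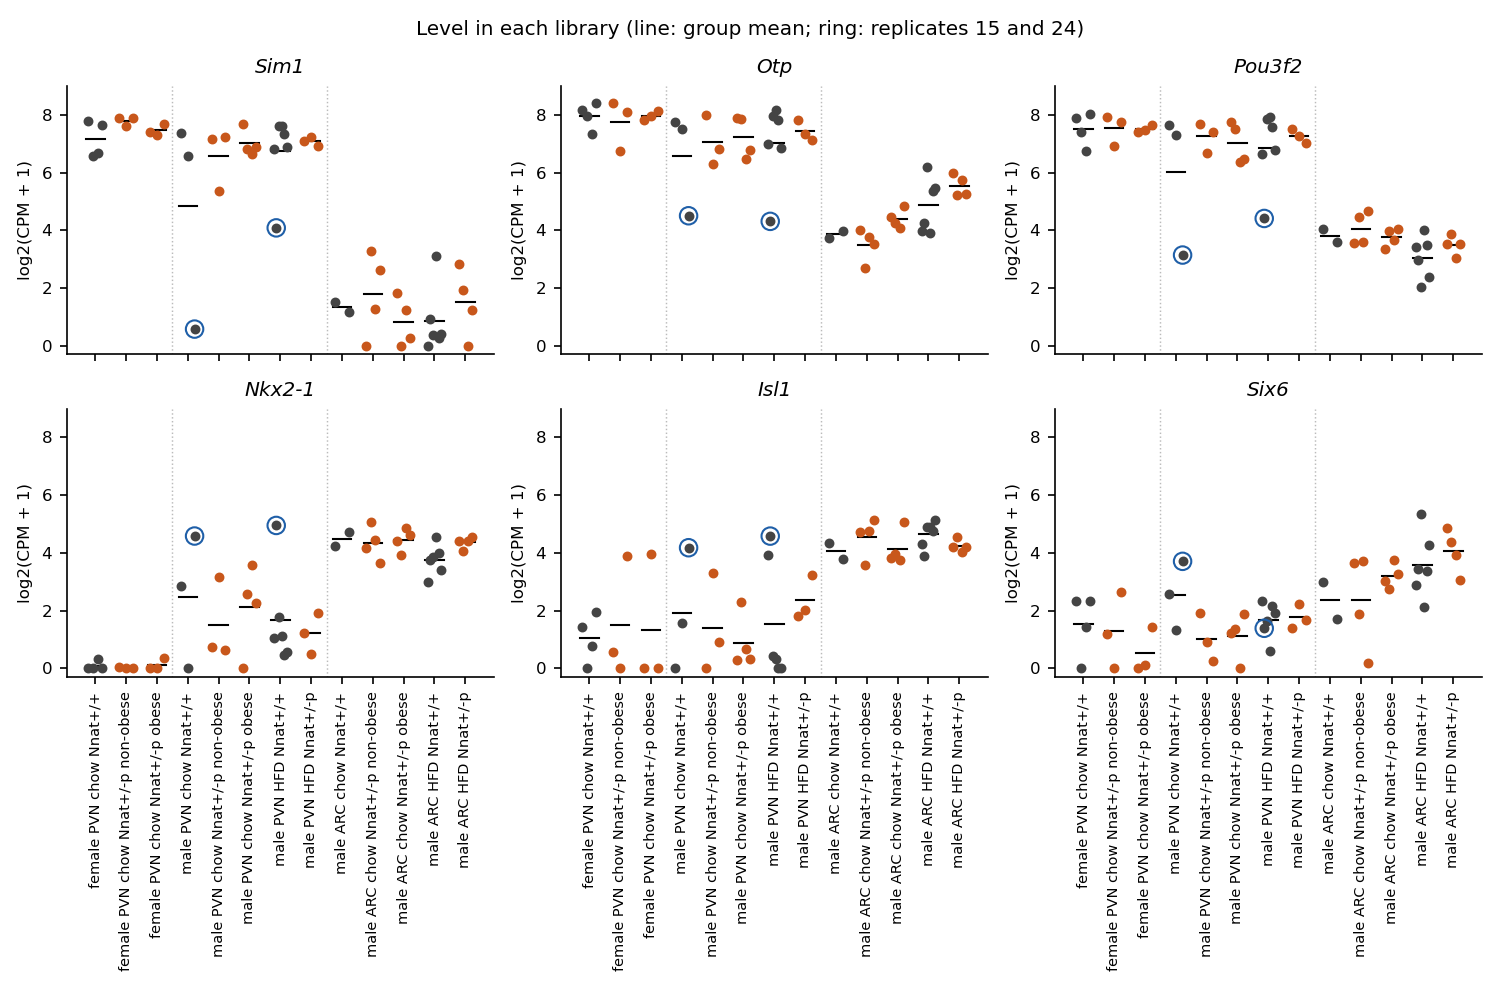
Level of 6 members in each of 49 libraries, as log2(CPM + 1), by nucleus, sex, diet and genotype. Points are libraries (dark, Nnat+/+; orange, Nnat+/-p), lines are means of the log2 values, and rings mark replicates 15 and 24, which have low Sim1, Otp and Pou3f2 and high Nkx2-1 and Isl1 for male PVN libraries.

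To see which members mark either nucleus, PVN and ARC libraries of the same male mouse were compared. Matching by labelled body weight, genotype and diet gave 16 mice and 33 libraries, with the mouse as a block. Replicate 15 took no part, because its ARC partner, replicate 35, was left out for its low total. Replicate 24 has the labelled weight of ARC replicate 51 (42.9 g), and PVN replicate 30 that of ARC replicate 44 (43.9 g). In both pairs the genotype labels differ, so these libraries took no part. Counts of the nuclei were deposited in separate tables, so nucleus and any batch between tables cannot be told apart. Of 31 members tested, 19 were called at an adjusted p under 0.05, 11 higher in the PVN and 8 higher in the ARC, where 22.4% of all 12490 genes tested were called (10.2% higher in the PVN and 12.1% higher in the ARC). The median log2 fold change was 0.07 over the members and 0.0019 over all genes tested. In laser-captured tissue, fewer cells that express a gene and less of its RNA per cell cannot be told apart.

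The PVN side was led by Sim1 (chr10:50894754-50989152), the factor on which the formation of PVN neurons depends. It ran from 40.6 to 206 CPM in the PVN, with a median of 128, and from 0 to 8.78 CPM in the ARC, with a median of 1.25. Every PVN library lay above every ARC library, and the log2 fold change was 5.91 (SE 0.34, edgeR adjusted p = 5.81e-14). Its partner Arnt2 (chr7:84246278-84410176) was 167 to 368 CPM in the PVN and 46.5 to 129 in the ARC, again without overlap, with a log2 fold change of 1.13 (SE 0.09, edgeR adjusted p = 1.3e-10). Sim2, the paralogue of Sim1, was far lower, at a median of 3.16 CPM (0.723 to 15.3) in the PVN and 0.555 (0 to 4.05) in the ARC. It was higher in the PVN in 14 of 16 mice (log2 fold change 2.20, SE 0.60, edgeR adjusted p = 0.00714).

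POU factors of class III split. Pou3f2 (chr4:22482780-22488366), which drives the maturation of magnocellular and corticotropin-releasing neurons, ran from 81.1 to 241 CPM (median 176) in the PVN and from 3.05 to 24.1 (median 11.0) in the ARC. The log2 fold change was 3.46 (SE 0.16, edgeR adjusted p = 5.42e-16). The X-linked Pou3f4 (chrX:110814280-110817207) was 7.36 to 18.4 CPM in the PVN and 0 to 2.78 in the ARC, with a log2 fold change of 3.03 (SE 0.39, edgeR adjusted p = 4.64e-07). Both were higher in the PVN of 16 of 16 mice, with no overlap between nuclei. Pou3f3 was at a mean of 20.0 ± 9.15 CPM (SD, n = 16) in the PVN and 19.1 ± 8.06 (SD, n = 17) in the ARC, and its log2 fold change of -0.21 was not called. Pou3f1 was 4.85 ± 4.84 CPM (SD, n = 16) and 1.85 ± 1.63 (SD, n = 17), also without a call.

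Otp (chr13:94875602-94885130), the homeodomain factor of neuroendocrine PVN neurons that also marks a part of the ARC, was 78.5 to 285 CPM (median 196) in the PVN and 5.41 to 72.1 (median 17.9) in the ARC. It was higher in the PVN of 16 of 16 mice without overlap, with a log2 fold change of 2.49 (SE 0.20, edgeR adjusted p = 5.08e-11). Meis2 was 0.262 to 28.7 CPM (median 6.61) in the PVN and 0 to 15.5 (median 1.42) in the ARC. Among the lower members on the PVN side were the TALE factor Meis2 (log2 fold change 1.71, SE 0.46), the LIM factors Lhx2 (1.64, SE 0.44), Lhx9 (1.64, SE 0.50) and Lhx5 (1.13, SE 0.27) and the cut-homeobox gene Onecut2 (1.03, SE 0.35). Their edgeR adjusted p ran from 0.00267 to 0.0319, their values overlapped between nuclei, and each was higher in the PVN in 13 or 14 of 16 mice. Lhx9 also marks the lateral hypothalamus and Lhx5 the mammillary region.

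The ARC side was led by Isl1 (chr13:116298281-116309689), a LIM factor that activates Pomc. It was 0 to 14.1 CPM in the PVN, with a median of 0.451, and 10.8 to 34.5 CPM in the ARC, with a median of 19.4. Isl1 was higher in the ARC of 15 of 16 mice, with a log2 fold change of -4.14 (SE 0.53, edgeR adjusted p = 5.43e-07). Nkx2-1 (chr12:56531958-56536908) was 0 to 10.9 CPM in the PVN and 9.58 to 32.4 in the ARC, higher in the ARC of 16 of 16 mice (log2 fold change -3.56, SE 0.36, edgeR adjusted p = 7.1e-09). In both genes the highest PVN libraries overlapped the lowest ARC libraries.

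Six6 (chr12:72939892-72944899), a sine oculis factor of the ventral hypothalamus and suprachiasmatic nucleus, was 0 to 5.01 CPM in the PVN and 0.134 to 39.7 in the ARC (log2 fold change -2.69, SE 0.35, edgeR adjusted p = 5.51e-07). Its paralogue Six3 averaged 14.6 ± 9.40 CPM (SD, n = 16) in the PVN and 24.6 ± 10.0 (SD, n = 17) in the ARC (-1.17, SE 0.24, edgeR adjusted p = 0.000529). Prox1 (chr1:190118035-190170714), the vertebrate prospero factor, was 4.81 to 24.7 CPM in the PVN and 22.3 to 53.3 in the ARC, higher in the ARC of 16 of 16 mice (-1.76, SE 0.19, edgeR adjusted p = 2.71e-08). Dlx1 was 0 to 23.6 CPM (median 6.50) in the PVN and 3.15 to 26.2 (median 13.3) in the ARC, and Dlx6 was 0 to 7.5 (median 1.45) and 1.35 to 11.5 (median 3.55), with overlap in both. These distal-less genes, factors of GABA neurons, were lower in the PVN by log2 fold changes of -1.34 (SE 0.37, edgeR adjusted p = 0.0076) and -1.62 (SE 0.55, edgeR adjusted p = 0.0313). Zfhx3, a large zinc-finger homeobox factor of the suprachiasmatic clock, was 69.8 ± 24.4 CPM (SD, n = 16) in the PVN and 83.8 ± 21.7 (SD, n = 17) in the ARC (-0.62, SE 0.13, edgeR adjusted p = 0.000398).

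**Figure D2:**
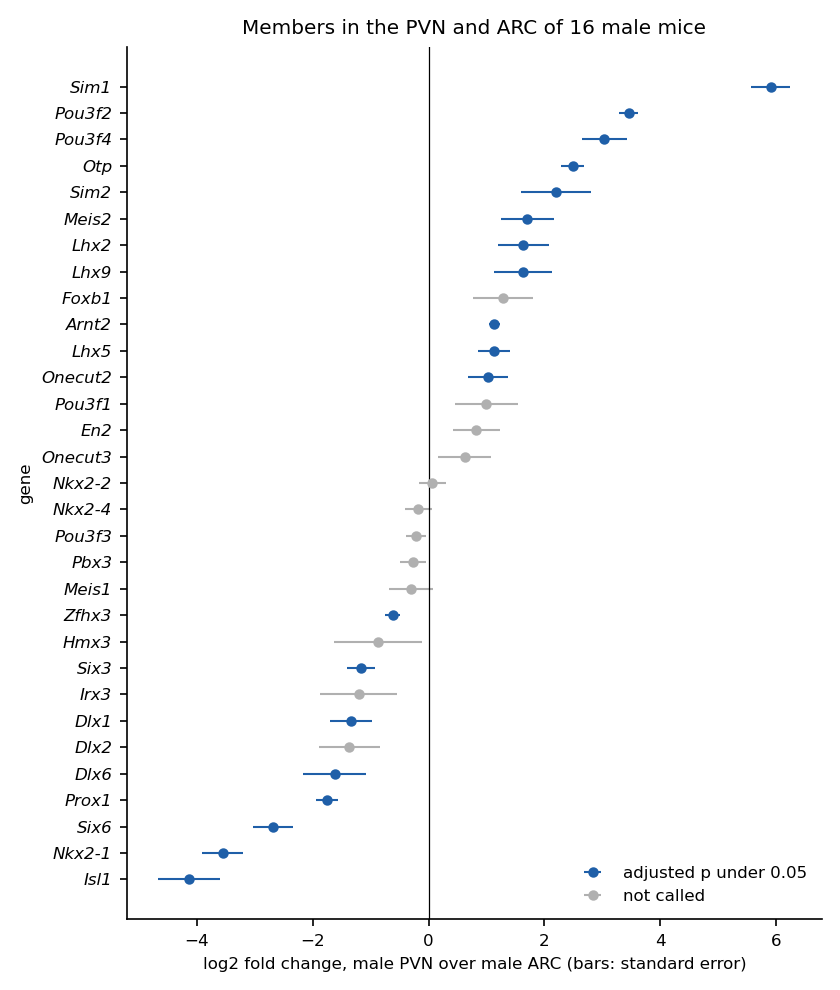
Log2 fold change of male PVN over male ARC for the 31 members tested in 16 mice, with bars for the standard error. Blue points are the 19 members called at an edgeR adjusted p under 0.05, from Sim1 at 5.91 to Isl1 at -4.14, and grey points the members not called.

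Members tested and not called were Nkx2-2, Nkx2-4, Pou3f1, Pou3f3, Meis1, Pbx3, Onecut3, Dlx2, Hmx3, Irx3, Foxb1 and En2, with log2 fold changes from -1.37 (Dlx2) to 1.29 (Foxb1). Nkx2-4, a close relative of Nkx2-1, was 12.8 ± 5.66 CPM (SD, n = 16) in the PVN and 11.6 ± 4.97 (SD, n = 17) in the ARC, and it was higher in the PVN in 9 of 16 mice. Lhx1, Lhx6, Lhx8, Dlx5, Barhl1, Barhl2, Vax1, Otx1, Otx2, Hmx2 and Irx5 were too low to be tested. Their means were 0.938 to 4.24 CPM in the PVN and 0.291 to 2.75 CPM in the ARC.

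Of the 19 calls, those of Sim1, Otp, Pou3f2, Pou3f4, Arnt2, Isl1, Nkx2-1, Six6 and Prox1 were made in all 10 alternative fits. Dlx6 was lost on leaving out 6 of the 16 mice in turn and Onecut2 on leaving out 4, the mice of replicates 14 and 34, 16 and 36, 19, 39 and 40, and 23 and 45. In chow-fed and HFD-fed mice fitted apart, the log2 fold changes were 3.07 and 1.78 for Otp, 2.05 and 1.02 for Lhx2, 3.48 and 2.41 for Pou3f4, -3.09 and -4.11 for Nkx2-1, -0.70 and -1.67 for Six3 and -0.94 and -2.29 for Dlx6. For Sim1 they were 5.90 and 5.83 and for Isl1 -4.05 and -3.98. The difference between diets was not tested. Lhx9 passed the filter on low counts in 9 of the 16 fits that left out a mouse.

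Replicates 15 and 24 were compared with the range of the ARC libraries. Replicate 15 had 0.489 CPM of Sim1, 21.7 of Otp and 7.82 of Pou3f2, with 23.0 of Nkx2-1, 17.1 of Isl1 and 27.0 of Prox1. In replicate 24 the same genes were at 15.9, 18.8, 20.2, 29.9, 22.9 and 79.7 CPM. Of the 19 called members, 18 in replicate 15 and 14 in replicate 24 lay within the range of the 20 ARC libraries. In replicate 24 Sim1, Sim2, Lhx5, Dlx1 and Prox1 lay above every ARC library. Its summed CPM of 5 suprachiasmatic markers was 107, against 18.4 to 92.1 in the other 48 libraries. Of these markers, the members Lhx1 and Six6 were at 2.33 and 1.61 CPM in replicate 24. Both lay within the ranges of the other 17 male PVN libraries (0 to 10.7 and 0 to 5.01 CPM). Pomc was 98.4 CPM in replicate 15 and 5.91 CPM in replicate 24, against 0.288 to 14.3 CPM in the other male PVN libraries.

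Of 67 further patterning factors, 40 were tested between the nuclei, and 14 were called higher in the PVN and 8 higher in the ARC. Over all 12490 genes tested, 10.2% were called higher in the PVN and 12.1% higher in the ARC. The zinc-finger gene Fezf2 (log2 fold change 4.71), Zic1 (2.48), Zic2 (2.23) and Pax6 (1.87) led the PVN side, which also held Nhlh2, Irx1, Foxp2, Alx4, Tshz1, Cux2, Foxp1, Pou6f1, Pou2f1 and Zeb2. Nr5a1 (-3.64), the factor of the ventromedial nucleus next to the ARC, Sox14 (-3.56), Fezf1 (-2.56), Bsx (-2.56) and Tbx3 (-2.43) led the ARC side, which also held Tshz2. Bsx and Tbx3 act in ARC feeding neurons.

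The question of Nnat loss was asked in each nucleus and sex by comparing obese, non-obese or both Nnat+/-p subgroups with Nnat+/+, and by the same comparison on HFD. In these comparisons a gene was called at an edgeR adjusted p under 0.25, the study's threshold. In females 35 members were tested, and En2 was called in obese Nnat+/-p against Nnat+/+, where 0.0129% of all 15485 genes were called, and in both subgroups together (0.0129%). En2 is on the list because of those values, so nothing is read from its calls. No member was called in non-obese Nnat+/-p against Nnat+/+ (0.00646% of all genes) or between the Nnat+/-p subgroups (0%). At an unadjusted p under 0.05 the members numbered 2 and 0 there, where 4% and 3.06% of all genes passed.

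Sim1 in females was 94.9 to 220 CPM in Nnat+/+, 196 to 238 in non-obese and 156 to 205 in obese Nnat+/-p libraries. Its log2 fold change in non-obese animals was 0.59 (SE 0.28, edgeR adjusted p = 1). The next smallest unadjusted p values were those of the TALE factor Pbx3 (-2.37, SE 1.14) and, between the Nnat+/-p subgroups, of Pbx3 (2.38, SE 1.18), Dlx1 (-2.21, SE 1.10) and Meis2 (2.89, SE 1.82), all with an edgeR adjusted p of 1. On leaving out 1 library, the last 3 moved between 1.19 (without replicate 8) and 3.81 (without 9), between -2.76 (without 9) and -0.82 (without 10), and between 1.04 (without 8) and 10.2 (without 9). Pbx3 was 6.29, 0.895 and 0.689 CPM in the non-obese and 4.57, 26.5 and 7.09 CPM in the obese libraries, a spread in which groups overlapped. The median log2 fold change of the members was -0.06 in both subgroups together, against -0.08 over all genes.

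On chow, 41 members were tested in the male PVN, all but Lhx6, and none was called in obese (0.0256% of all 15618 genes called), non-obese (0.0128%) or both Nnat+/-p subgroups (0.0192%, with 0.0064% higher) against Nnat+/+, or between the subgroups (0%). The unadjusted p was under 0.05 for 1, 2, 2 and 0 members, and En2 was among them in the first 3, where 3.52%, 2.56%, 3.53% and 1.66% of all genes passed. Prox1 was 24.7, 21.6 and 27.0 CPM in Nnat+/+ libraries, the last of these replicate 15, 5.68, 11.5 and 8.80 CPM in non-obese and 4.92, 8.93, 20.4 and 17.3 CPM in obese Nnat+/-p libraries. Every Nnat+/-p library on chow lay below every Nnat+/+ library on chow, and the share of all genes that separate in this way was not counted. On HFD, the Nnat+/+ libraries other than replicate 24 held 4.81 to 20.4 CPM of Prox1. The log2 fold change over both subgroups was -1.12 (SE 0.45) and in non-obese animals -1.48 (SE 0.57), both with an edgeR adjusted p of 1. Without replicates 15 and 24 they were -0.91 and -1.26. The Prox1 level of replicate 15 lay within the range of the ARC libraries.

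Other members with the smallest unadjusted p in the chow-fed male PVN, all at an edgeR adjusted p of 1, were Lhx9 (-1.85, SE 0.94) and Isl1 (-2.48, SE 1.52) in obese animals, Dlx2 (2.53, SE 1.30) in non-obese animals and Six6 (-2.26, SE 1.18) in both subgroups. Without replicates 15 and 24 the values were -2.37 for Lhx9, 4.16 for Dlx2 and -1.06 for Six6, and for Isl1 the direction turned, to 0.34. On leaving out 1 library Dlx2 ranged from 0.26 to 4.16 and Six6 from -2.88 to -1.06. Between the subgroups the smallest unadjusted p values were those of Zfhx3 (0.44, SE 0.31), Lhx9 (-1.30, SE 0.95) and Prox1 (0.72, SE 0.53). On HFD, with 42 members tested and 0.00569% of all 17576 genes called, no member was called. Besides En2, Barhl1 (-3.27, SE 1.60) and Hmx2 (-3.44, SE 1.72) came closest, both at an edgeR adjusted p of 1, from 0 to 0.255 CPM in Nnat+/-p and 0 to 7.88 CPM in Nnat+/+ libraries. The 7.88 CPM is Hmx2 in replicate 24, without which its log2 fold change was -1.50, and without replicates 15 and 24 Barhl1 was at -2.88.

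In the chow-fed male ARC 40 members were tested, all but Barhl2 and Otx2, and none was called in obese (0.0205% of all 14658 genes called), non-obese (0.0136%) or both Nnat+/-p subgroups (0.0205%) against Nnat+/+. Nkx2-2, a ventral patterning factor that also marks oligodendrocyte precursors, came closest after En2, with an edgeR adjusted p of 1 in each comparison, at -0.94 (SE 0.47) in non-obese, -0.66 (SE 0.46) in obese and -0.80 (SE 0.41) in both. Zfhx3 in obese animals (-0.41, SE 0.26) and Onecut2 in non-obese animals (-1.38, SE 0.82) and in both subgroups (-0.99, SE 0.72) followed, also at an adjusted p of 1. Onecut2 rested on the Nnat+/+ replicate 33 at 12.9 CPM, beside replicate 34 at 1.51 CPM.

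Between obese and non-obese Nnat+/-p ARC libraries no member was called, with 0.00682% of all genes called, and 5 of 40 members had an unadjusted p under 0.05, as did 4.25% of all genes. The Iroquois gene Irx3 was 0.203 to 2.43 CPM in the 4 obese and 2.95 to 11.5 CPM in the 4 non-obese libraries, without overlap (log2 fold change -2.39, SE 0.77, edgeR adjusted p = 0.999). Meis2 was 0.561 to 1.80 CPM in obese and 2.86 to 15.5 CPM in non-obese libraries (-2.46, SE 0.82, edgeR adjusted p = 0.999). Otp went the other way, at 15.7 to 27.8 CPM in obese and 5.41 to 14.9 CPM in non-obese libraries (0.99, SE 0.33, edgeR adjusted p = 0.999). Replicates 39 and 40, the highest for Irx3 and Meis2, carry the same labelled weight, and with their counts summed into 1 sample the log2 fold changes were -2.17 for Irx3, -2.07 for Meis2 and 0.86 for Otp. In the same libraries the summed CPM of 7 ARC neuron markers was 178 to 204 in obese and 65.6 to 177 in non-obese animals, and of 3 lateral hypothalamic markers 6.07 to 23.2 in obese and 24.4 to 187 in non-obese animals. The other 15 marker lists overlapped, and the share of all genes without overlap between these libraries was not counted. The part of the marker levels in these values was not tested.

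On HFD, 41 members were tested in the male ARC and none was called between Nnat+/-p and Nnat+/+, where 0.0127% of all 15753 genes were called (0.00635% in each direction). Besides En2, the smallest unadjusted p values were those of Nkx2-4, at 1.87 to 12.2 CPM in Nnat+/-p and 6.40 to 22.4 CPM in Nnat+/+ libraries (log2 fold change -0.86, SE 0.36), and of Sim2, which was at 0 in all 4 Nnat+/-p libraries and at 0 to 0.927 CPM in Nnat+/+ libraries. Both had an edgeR adjusted p of 0.999. None of the 67 further patterning factors was called in a genotype comparison.

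**Figure D3:**
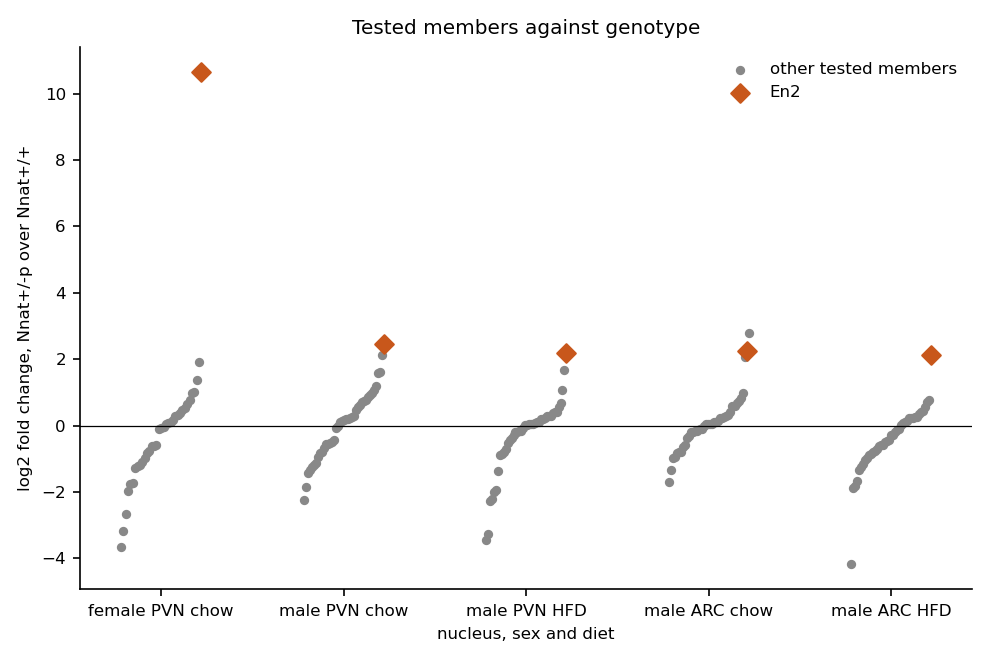
Log2 fold change of Nnat+/-p over Nnat+/+ for each tested member, in 5 sets by nucleus, sex and diet, with both weight classes together on chow. Grey points are members in order of size and orange diamonds En2. The female value of En2 is fitted against libraries that were all at 0, so its height is no measured size.

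En2 (chr5:28165694-28172166, plus strand) is a homeobox gene of the midbrain and hindbrain. It was counted per gene, so which part of En2 the reads came from is not known. Whether the lacZ cassette of the null allele adds to the En2 counts was not tested. In the female PVN it had 0 counts in all 4 Nnat+/+ libraries, while the non-obese Nnat+/-p libraries held 22.4, 5.82 and 1.51 CPM and the obese ones 11.5, 24.1 and 15.0 CPM. Against a floor of 3 counts in a library of median depth (0.203 CPM), the obese median was at least 73.8-fold higher and the non-obese median at least 28.6-fold higher. These are the values that put it on the list, and they are given as a description. Other midbrain and cerebellar genes reached at most 0.0992 CPM (En1), 0 (Gabra6), 1.34 (Pax2), 5.82 (Cbln3) and 19.8 CPM (Neurod1) in the female PVN, the last in the Nnat+/+ replicate 4.

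En2 was added because of its female PVN values. Earlier results of these data were known when the members were chosen, so the males are not a fully separate check. In the chow-fed ARC the 8 Nnat+/-p libraries held 2.43 to 9.46 CPM (mean 6.34 ± 2.02, SD) and the 2 Nnat+/+ libraries 2.15 and 0.251 CPM, without overlap. In the ARC on HFD the 4 Nnat+/-p libraries held 1.64, 2.11, 0.644 and 3.36 CPM, and the 6 Nnat+/+ libraries 0 to 1.39 CPM, of which only replicate 49 exceeded 0.278. The difference in means was 5.14 CPM on chow (two-sided exact permutation p = 0.0222, the smallest that 45 splits allow, Benjamini-Hochberg 0.0444 over 4 tests) and 1.57 CPM on HFD (exact permutation p = 0.00952, Benjamini-Hochberg 0.0381).

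In the male PVN on HFD the 3 Nnat+/-p libraries held 13.2, 5.66 and 1.15 CPM and the 6 Nnat+/+ libraries 0 to 4.66 CPM, the highest being replicate 24. The difference in means was 5.21 CPM (exact permutation p = 0.0357, Benjamini-Hochberg 0.0476), and it was lost in 6 of 9 fits that left out 1 library (exact p up to 0.179) and on log2(CPM + 1) values (exact p = 0.0833). Without replicate 24 the exact p was also 0.0357. On chow the 7 Nnat+/-p libraries held 4.36 to 30.8 CPM (mean 12.3 ± 9.59, SD) and the 3 Nnat+/+ libraries 7.52, 0.436 and 0 CPM, the last being replicate 15. The difference of 9.63 CPM did not pass (exact permutation p = 0.15, and 0.333 without replicate 15). Without replicate 33 or 34 the ARC test on chow gave an exact p of 0.111, the smallest that 1 library against 8 allows. Replicates 39 and 40, taken as 1 mouse between the nuclei, count separately in the ARC test on chow. Leaving out 1 Nnat+/-p library there gave an exact permutation p of 0.0278. PVN and ARC libraries came from the same mice, so the 4 tests are not independent.

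Across all 49 libraries no Nnat+/-p library was at 0 for En2 (0.644 to 30.8 CPM, median 6.28, n = 28). Of the 21 Nnat+/+ libraries 7 were at 0 (median 0.277, highest 7.52 CPM). These counts hold the female libraries that put En2 on the list, with all 4 Nnat+/+ ones at 0, and are a description. In the fits across all genes the male log2 fold changes were 2.11 to 2.71 in 8 comparisons, with edgeR p from 0.00927 to 0.0365 and adjusted p of 0.999 or above. Without the Nnat+/+ replicate 13, which leaves replicates 14 and 15, the male PVN value on chow was 5.66 (edgeR adjusted p = 0.0382, with a range of 0.0382 to 1 on leaving out each library). Without replicates 15 and 24 it was 1.87 on chow and 3.01 on HFD, both with an edgeR adjusted p of 1. Of the 7 annotated genes within 500 kb of En2, 6 were tested in the same comparisons and Cnpy1 only in the male PVN, and 2 of 89 tests had an unadjusted p under 0.05, with a lowest edgeR adjusted p of 0.999.

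**Figure D4:**
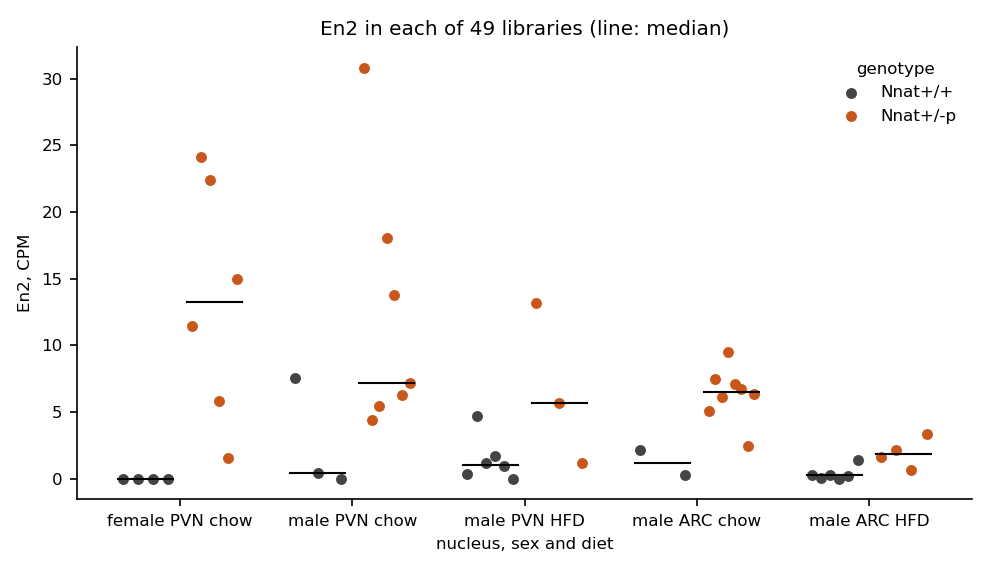
En2 in CPM in each of 49 libraries by nucleus, sex and diet (dark, Nnat+/+; orange, Nnat+/-p; line, median). Nnat+/-p libraries run from 0.644 to 30.8 CPM and Nnat+/+ libraries from 0 to 7.52 CPM.

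Diet was compared in Nnat+/+ males. In the ARC 1 of 41 members tested was called, where 1.16% of all 15753 genes were called (0.66% lower). Nkx2-2 (chr2:147177546-147194243) was 21.0 and 17.1 CPM on chow and 3.71 to 5.98 CPM in the 6 HFD libraries. It fell by 1.88 on the log2 scale (SE 0.43, edgeR adjusted p = 0.102). Without replicate 33 or 34, which leaves 1 chow library assumed to vary like the other groups, it was at -1.73 and -1.98 and was not called (edgeR adjusted p = 0.755 and 0.467). On leaving out an HFD library the edgeR adjusted p was 0.0514 to 0.19. Chow-fed Nnat+/-p ARC libraries were at 6.96 to 21.1 CPM (non-obese) and 4.66 to 18.3 CPM (obese), and HFD-fed ones at 4.58 to 14.1 CPM.

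Otp in the ARC was 12.4 and 14.8 CPM on chow and 14.1 to 72.1 CPM on HFD, with a log2 fold change of 1.43 (SE 0.45, edgeR adjusted p = 0.266), and was not called. DESeq2 (adjusted p = 0.0732), the fit of only these groups (edgeR adjusted p = 0.238), the fit with replicates 39 and 40 summed (edgeR adjusted p = 0.216) and the fit without a filter (edgeR adjusted p = 0.00137) called it, as did the fits without replicate 45 or 47. With limma voom its adjusted p was 0.347, and with all labelled libraries the direction turned (-0.14, edgeR adjusted p = 0.948). Arnt2 (-0.50, SE 0.23), Six6 (1.78, SE 0.84) and Dlx5 (2.49, SE 1.21) had unadjusted edgeR p of 0.0382 to 0.0475. Among the further factors, Tbx3 was higher on HFD (log2 fold change 2.30) and Alx4 (-4.23) and Fezf1 (-2.26) were lower.

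Summed levels of several marker lists, of neighbouring territories and of cell types, differed between the diets in these ARC libraries. The summed CPM of 4 ventromedial markers, Nr5a1 among them, was 125 to 199 on chow and 5.55 to 82.2 on HFD in Nnat+/+ males. For 7 ARC neuron markers it was 78.3 to 85.1 on chow and 151 to 788 on HFD, and for 3 lateral hypothalamic markers 31.9 to 103 on chow and 0.278 to 30.7 on HFD. Of 17 marker lists, 8 did not overlap between the diets, with 2 libraries on chow against 6 on HFD. The others of these were 5 oligodendrocyte markers at 590 to 678 on chow and 143 to 528 on HFD, 5 thalamic markers at 241 to 276 and 68.9 to 192, 4 general neuron markers at 836 to 838 and 309 to 806, 5 tanycyte and ependymal markers at 4.30 to 10.5 and 10.9 to 30.3, and 6 GABA neuron markers of the zona incerta and anterior hypothalamus at 18.1 to 28.3 and 35.2 to 57.4. Pmch and Hcrt, the defining lateral hypothalamic peptides, were at 0 in at least 1 HFD library. The share of all genes without overlap in this split was not counted. The part of these marker levels in the values of Nkx2-2 and Otp was not tested.

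**Figure D5:**
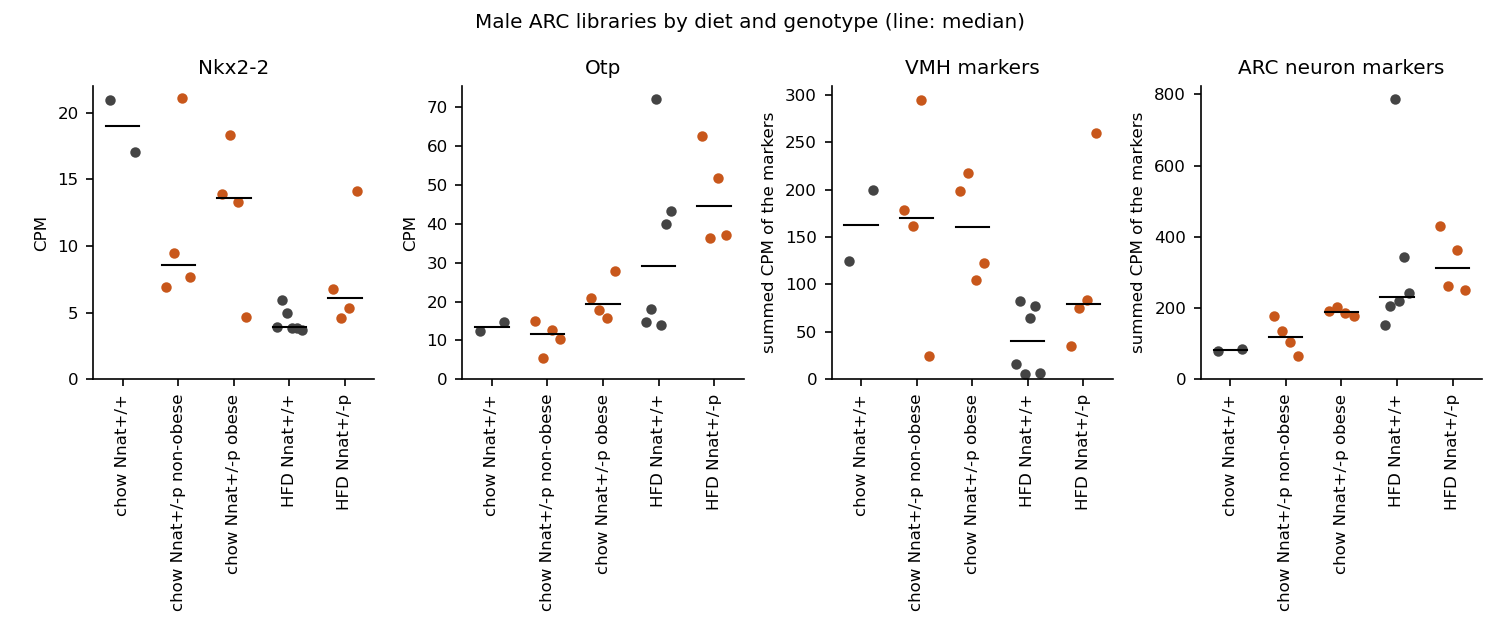
Nkx2-2, Otp and the summed markers of the ventromedial hypothalamus (VMH) and of ARC neurons in each male ARC library, in CPM, by diet and genotype (dark, Nnat+/+; orange, Nnat+/-p; line, median). In Nnat+/+ libraries Nkx2-2 and the VMH markers are lower and the ARC neuron markers higher on HFD.

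In the male PVN 42 members were tested between diets in Nnat+/+ animals and none was called, where 1.43% of all 17576 genes were called (1.12% lower). At an unadjusted p under 0.05 there were 2 of 42 members, against 10.3% of all genes, and DESeq2 called none. Six3 was 18.7 to 29.1 CPM in the 3 chow libraries and 5.02 to 22.7 CPM in the 6 HFD libraries (log2 fold change -1.06, SE 0.47, edgeR adjusted p = 0.418). Lhx9 was 16.3, 19.2 and, in replicate 15, 1.14 CPM on chow and 1.31 to 8.53 CPM on HFD (-1.61, SE 0.75, edgeR adjusted p = 0.453). Lhx1 followed (-1.69, SE 1.05, edgeR adjusted p = 0.623). The summed CPM of 3 lateral hypothalamic markers, Lhx9 among them, was 17.9 to 22.3 on chow and 1.31 to 38.9 on HFD, and that of 4 ventromedial markers 22.6 and 22.7, with 279 in replicate 15, on chow and 14.7 to 24.7 on HFD. Of 17 marker lists, 1 did not overlap between the diets. It holds 5 markers of forebrain excitatory neurons, at 40.1 to 242 on chow and 8.82 to 31.2 on HFD. The share of all genes without overlap was not counted, and the part of the marker levels in these values was not tested. Without replicates 15 and 24, Six3 was at -0.82 (edgeR adjusted p = 0.502) and Lhx1 at -1.52. Lhx9 (-2.08, edgeR adjusted p = 0.239) and Irx5 (-3.31, edgeR adjusted p = 0.171) were called without them, and Irx5 was then 7.83 and 5.67 CPM on chow and 0 to 1.96 CPM on HFD. Alx4 (-5.11), Nr5a1 (-4.96) and Fezf1 (-2.77) of the further factors were lower on HFD.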

How the data were processed

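RNA from laser-captured PVN and ARC of individual mice was made into total RNA libraries with a stranded low-input kit and sequenced. The authors deposited raw counts per Ensembl gene in 3 tables, for female PVN, male PVN and male ARC. STAR 2.5.0a and GRCm38 are named in the submitters' processing notes, while the counting tool, annotation release and strand setting are not given in the sources used here. Without them, reads of 14 members that share exonic bases with another gene cannot be told apart from its reads (Nkx2-2, Lhx5, Lhx6, Dlx1, Dlx6, Pou3f1, Six3, Six6, Meis1, Otx2, Prox1, Irx3, Arnt2 and Foxb1).

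Of 53 libraries 49 were used. Replicates 5, 7 and 35 had totals below 25% of the median library beside them, and replicate 32 carries an ARC label in the PVN table. Totals were 1479953 to 30228973 counts, which limits genes of a few CPM, and floors cover counting error only. Printed CPM are counts over the library total, with a mean and SD where groups are summarised, and per kilobase by exonic length.

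Tests were edgeR 4.0.16 quasi-likelihood fits in R 4.3.3 with TMM scaling, filterByExpr at a minimum count of 10 and Benjamini-Hochberg adjustment over all genes tested, tested on simulated data. They were called at 0.25, or 0.05 between nuclei. Chow groups of a table shared 1 fit, and diet and HFD comparisons used all groups of a table. Nuclei were compared with the mouse, matched by labelled weight, genotype and diet, as a block. The study's methods used DESeq2, run here (1.42.0) as an alternative beside limma 3.58.1 voom, other scaling, no filter beyond a total count over 1, all labelled libraries, fewer groups and leaving out libraries. En2 in males was tested with exact permutations of CPM. The members and lists were chosen with earlier results of these data known. Some called genes outside the list of members are not reported here by name. Full statistics are given for called members, for up to 3 with the smallest p where none was called, and for the 6 largest in each direction between nuclei.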

Additional observations from a re-analysis of the deposited data

Results flagged for a closer look

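In 145 groups of 4 to 10 libraries tested over 21 genes, 16 held a library with a gap to the others above Dixon's 95% critical value, where chance flags about 1 group in 20. In the male PVN on HFD, Nnat+/+ replicate 24 had 29.9 CPM of Nkx2-1 (others 0.39 to 2.45), 79.7 of Prox1 (4.81 to 20.4) and 4.66 of En2 (0 to 1.7). In the same group replicate 23 had 8.53 CPM of Lhx9 (others 1.31 to 3.05), 28.7 of Meis2 (0.262 to 2.99) and 22.7 of Six3 (5.02 to 10.9). In the obese Nnat+/-p male PVN on chow, replicate 17 had 3.97 CPM of Isl1 (0.223 to 0.575) and 38.1 of Six3 (5.36 to 10.9), and replicate 16 had 206 CPM of Sim1 (99.8 to 116).

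In the obese Nnat+/-p male ARC on chow, Isl1 was 32.8 CPM in replicate 42 (others 12.4 to 14.6), Sim2 was 2.8 CPM in replicate 37 (others at 0) and Pou3f4 was 0 in replicate 36 (others 0.899 to 1.01). In the Nnat+/+ male ARC on HFD, En2 was 1.39 CPM in replicate 49 (others 0 to 0.278), Sim1 was 7.59 CPM in replicate 47 (0 to 0.886) and Six3 was 49.9 CPM in replicate 46 (15.9 to 26). In the Nnat+/+ female PVN, Nkx2-1 was 0.238 CPM in replicate 3 and 0 in the others.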

How the results depend on the processing

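Between the nuclei, 19 members were called in the edgeR fit, 17 to 20 on leaving out each mouse, and 12 in chow-fed mice alone. Without the mouse as a block, in all male libraries (no replicate block), 19 were called, Dlx1 was lost (-0.81, edgeR adjusted p = 0.0743) and Pou3f1 was gained. For genotype and diet, no paired analysis was possible, because both differ between mice and the labels give no litters to pair them by.

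In females, the 1 member called in obese Nnat+/-p against Nnat+/+, En2, became 0 at an adjusted p under 0.05, 0 with RLE scaling, 5 with all labelled libraries and 0 on leaving out any library. In both subgroups 1 became 0 at 0.05, 0 with RLE, 2 without a filter, 2 with all labelled libraries and 0 to 1 on leaving out libraries. In non-obese animals 0 became 1 with DESeq2, 1 without a filter, 1 with all labelled libraries and 0 to 1 on leaving out libraries, and between the subgroups 0 became 5 with all labelled libraries. In the chow-fed male PVN 0 calls in obese, non-obese and both subgroups became 0 to 1 on leaving out libraries, the 1 being En2 without replicate 13.

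For diet in the male PVN, 0 became 2 without a filter (Sim1 and Six3), 2 without replicates 15 and 24, and 0 to 1 on leaving out a library (1 without replicate 15 or 23). In the male ARC, 1 became 0 at an adjusted p under 0.05, 3 without a filter (Nkx2-2, Otp and Six6), 3 with voom (Nkx2-2, Otx1 and Sim2), 2 with all labelled libraries, 2 with only the groups compared, 2 with replicates 39 and 40 summed, and 0 to 2 on leaving out a library. DESeq2 called Otp and gave no adjusted p for Nkx2-2. Male En2 in the PVN on HFD had an exact permutation p of 0.0833 on log2(CPM + 1) and 0.0357 to 0.179 on leaving out a library, and in the ARC on chow 0.0278 to 0.111.

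Signs turned for Otp by diet in the ARC with all labelled libraries (-0.14), for Dlx1 between female subgroups with limma voom (0.15), for Isl1 in obese male PVN without replicates 15 and 24 (0.34, and -3.06 to 0.34 on leaving out libraries), and for Onecut2 in the ARC on leaving out libraries (-2.22 to 0.85 in non-obese and -1.82 to 1.24 in both subgroups). No cause was tested. Depth leaves members of a few CPM with counts too low for firm statements, and 2 Nnat+/+ libraries carry the ARC on chow.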

Other observations

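Replicate 32 is labelled ARC but stands in the male PVN table, and was left out of every comparison. It held 160 CPM of Sim1, 208 of Otp, 185 of Pou3f2 and 312 of Arnt2, with 0.68 of Nkx2-1, 2.45 of Isl1, 8.3 of Prox1 and 1.5 of Six6.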
